A study of Mus musculus with 19 samples.

Results

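A set of 9 genes of the clock's output arm was described in mouse liver. They were Dbp, Tef and Hlf, the repressor Nfil3, the Rev-erb genes Nr1d1 and Nr1d2, and Ciart, Bhlhe41 and Usp2. They were taken by symbol from the gene-level table, 9 of 55836 genes, and all 9 were among the 13597 genes that passed the filter on low counts. No Ror gene is among the 9. Rora and Rorb are given beside them. Whole livers of male C57BL/6 wild-type mice, 8 weeks old at the start, were profiled by RNA-seq after 8 weeks on a control diet (CD) or on a diet that induces metabolic dysfunction-associated steatohepatitis (MASH diet, MD). Each mouse was gavaged daily with vehicle (Veh) or with 2 mg of polyethylene microplastic (PE). This gave 4 libraries of CD + Veh and 5 libraries each of CD + PE, MD + Veh and MD + PE. The sources used here give a 12-hour light and dark cycle but not the time of day at which livers were taken. Each library is labelled as a separate sample of its group.

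The mammalian clock is a feedback loop in which BMAL1, with CLOCK or NPAS2, activates genes through E-box sites, and PER and CRY proteins shut that activation off. Rev-erb proteins (Nr1d1, Nr1d2) repress Bmal1 and Ror proteins activate it through a shared element. The PAR bZIP factors DBP, TEF and HLF pass the rhythm on through D-box sites, where NFIL3 competes with them as a repressor, and in liver they drive detoxification and metabolic enzymes. Transcripts of these genes swing over the day, so a single liver shows 1 moment of the cycle.

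The start-site windows of the members are shown because the loop is known to act on its output genes through short sites near their starts. RefSeq windows from 250 bases before to 50 bases after a start were found for 9 of the 9 members (10 windows, listed for GRCm38.p6 and placed on GRCm39 by exact match). They were searched on both strands for the E-box CACGTG, the D-box TTATGTAA or TTACGTAA, and the Rev-erb and Ror element core TAGGTCA. An E-box was present in the windows of Ciart, Tef and Bhlhe41, 3 of the 9 members, against 8.09% of 27025 genes with a window. The Rev-erb and Ror core was present in Nfil3 alone of the 9, against 2.97% of genes. No member held either D-box word, against 1.23% of genes. A match of letters is a description and not a site in use. The capitals below mark the matches, 5′ to 3′ on the gene's strand.
Ciart, minus strand, chr3:95789491-95789790: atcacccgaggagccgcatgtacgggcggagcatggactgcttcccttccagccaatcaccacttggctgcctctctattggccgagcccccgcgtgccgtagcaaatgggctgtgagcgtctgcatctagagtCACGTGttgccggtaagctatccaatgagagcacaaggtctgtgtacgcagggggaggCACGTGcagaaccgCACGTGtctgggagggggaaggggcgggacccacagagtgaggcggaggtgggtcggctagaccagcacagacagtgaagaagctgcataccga
Tef, first start, plus strand, chr15:81686624-81686923: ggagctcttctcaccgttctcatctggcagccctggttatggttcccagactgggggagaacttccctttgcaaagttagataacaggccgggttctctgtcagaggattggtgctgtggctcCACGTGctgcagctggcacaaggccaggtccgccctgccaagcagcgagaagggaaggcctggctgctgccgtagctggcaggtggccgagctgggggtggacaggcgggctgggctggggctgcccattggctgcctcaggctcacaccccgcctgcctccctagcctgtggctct
Tef, second start, plus strand, chr15:81695365-81695664: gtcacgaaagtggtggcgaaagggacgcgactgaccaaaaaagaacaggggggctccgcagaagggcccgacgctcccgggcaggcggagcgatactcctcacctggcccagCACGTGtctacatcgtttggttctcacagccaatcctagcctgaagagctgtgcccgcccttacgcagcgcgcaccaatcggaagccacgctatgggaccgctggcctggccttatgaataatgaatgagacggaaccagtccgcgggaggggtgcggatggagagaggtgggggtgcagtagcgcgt
Bhlhe41, minus strand, chr6:145811097-145811396: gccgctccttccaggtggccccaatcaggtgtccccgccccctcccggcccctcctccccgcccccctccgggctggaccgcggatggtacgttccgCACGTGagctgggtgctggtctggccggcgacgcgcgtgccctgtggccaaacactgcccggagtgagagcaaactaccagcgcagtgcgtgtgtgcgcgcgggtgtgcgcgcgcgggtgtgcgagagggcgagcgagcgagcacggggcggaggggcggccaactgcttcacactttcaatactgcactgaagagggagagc
Nfil3, minus strand, chr13:53135026-53135325: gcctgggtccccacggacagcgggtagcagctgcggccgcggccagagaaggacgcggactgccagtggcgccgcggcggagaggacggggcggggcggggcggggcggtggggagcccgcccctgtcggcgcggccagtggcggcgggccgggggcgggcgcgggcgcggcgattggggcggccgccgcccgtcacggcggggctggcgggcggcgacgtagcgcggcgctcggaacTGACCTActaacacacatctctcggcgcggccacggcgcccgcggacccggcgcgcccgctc
Ciart carried 3 E-boxes, at -116 to -111, -58 to -53 and -44 to -39 from the start. Each Tef window carried 1, at -127 to -122 and at -138 to -133, and Bhlhe41 carried 1 at -153 to -148. In Nfil3 the Rev-erb and Ror core lay on the opposite strand, as TGACCTA at -12 to -6.

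Estimated counts summed to between 10398820 and 15456729 per library, and the PE libraries (10398820 to 12757617) were all below the vehicle libraries (13406037 to 15456729). The labels number the libraries 39 to 47 for vehicle and 48 to 57 for PE, so library number and PE cannot be told apart. The pseudogene Rps6-ps4 had 1088 to 1690 counts in the 7 libraries numbered 39 to 45 (CD + Veh 1 to 4 and MD + Veh 1 to 3) and 0 in the other 12, a division that runs through MD + Veh. Hepatocyte markers (6 of 6 detected) summed to between 66097 and 83016 CPM (counts scaled to library size by the TMM method) in CD + Veh and between 45383 and 58301 CPM in MD + Veh, and their part in the diet results was not tested. Skeletal muscle markers (9 genes) summed to 3065, 193 and 135 CPM in MD + Veh 1, 2 and 3 and to 408 CPM in CD + PE 1, against at most 37.2 CPM elsewhere. Kupffer cell markers (6 of 6) summed to 614 CPM in CD + PE 2 and to between 67.3 and 103 CPM in the other CD + PE libraries. They also moved with the diet, from 81.3 to 146 CPM in CD + Veh to 169 to 263 CPM in MD + Veh without overlap, with 0 of the 6 genes called, and their part in the diet results was not tested. These libraries are named again beside the results they touch.

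On vehicle, Dbp, Tef, Ciart and Usp2 were lower and Nfil3 was higher on the MASH diet than on the control diet, while Hlf, Nr1d1, Nr1d2 and Bhlhe41 did not pass the test. Here 5 members were called (adjusted p below 0.05 with a log2 fold change of 0.38 or more in size, edgeR's quasi-likelihood test with Benjamini-Hochberg adjustment over all 13597 genes). Of the 5, 4 were lower, against 5.63% of all genes called lower, and 1 was higher, against 4.74% called higher. In all, 10.4% of genes were called in this comparison. An unadjusted p below 0.05 was found for 8 members, against 28.6% of genes, and DESeq2 called the same 5 genes as edgeR, against 10.7% of the genes it tested. The members' median log2 fold change was -0.87, and that of all genes was 0.00. The libraries of MD + Veh lay wholly below those of CD + Veh for Dbp, Tef, Ciart and Usp2, an arrangement found for 8.88% of genes. In whole liver, fewer cells that make a transcript and less of it per cell cannot be told apart.

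**Figure D1:**
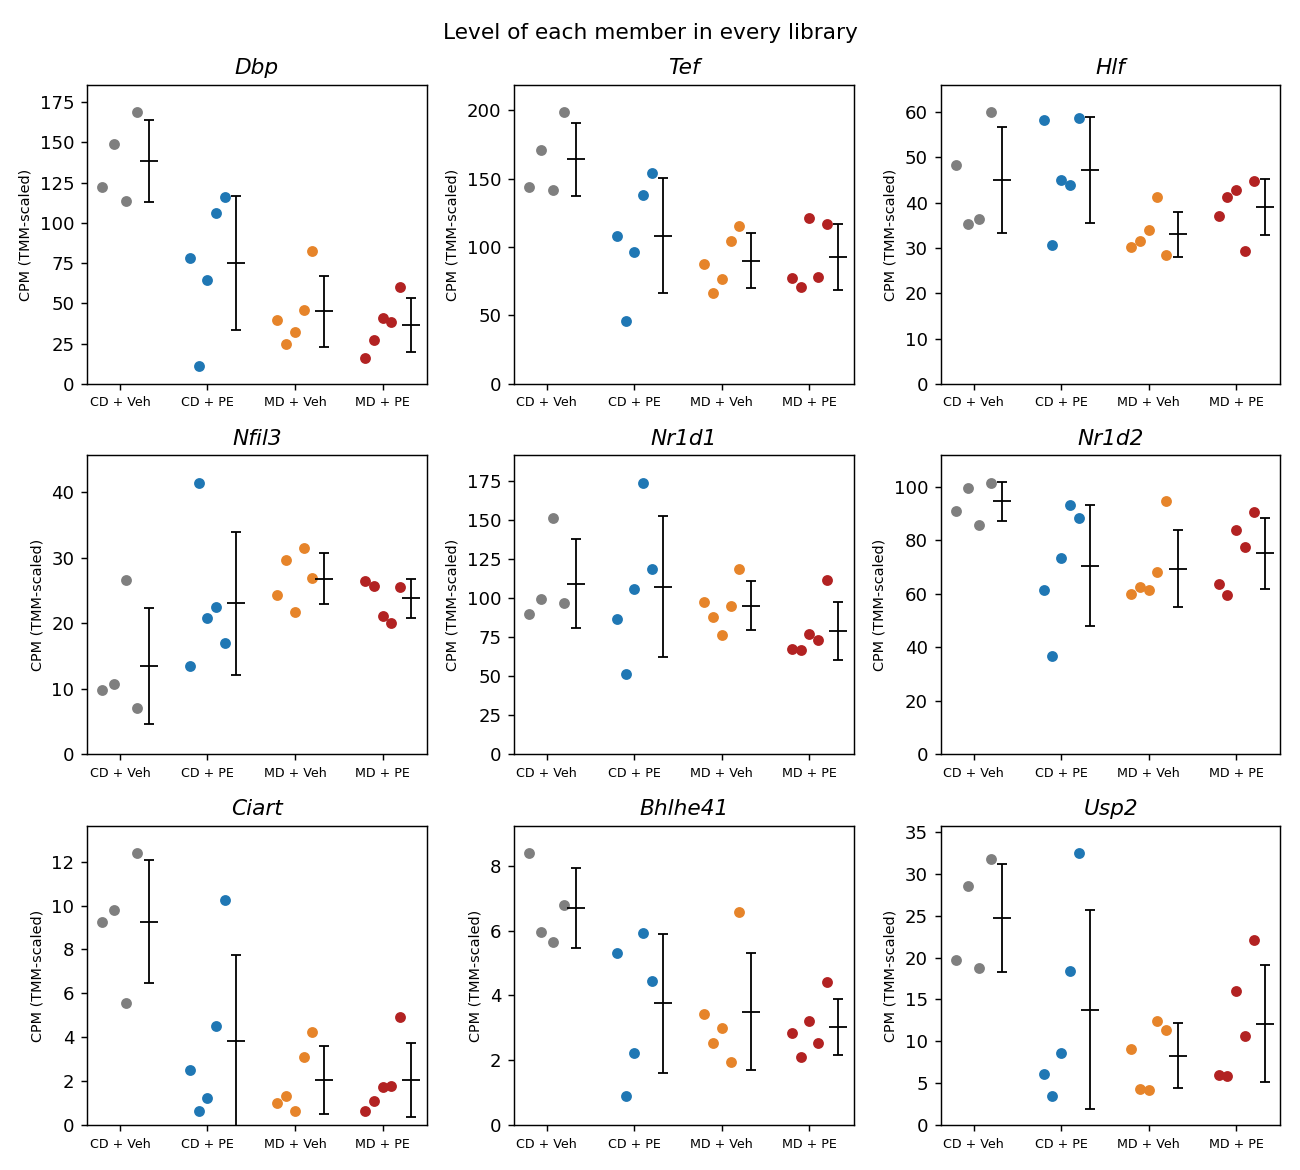
Each point is 1 library, plotted as TMM-scaled CPM (linear axis from 0) by group, and the bar beside each group is the mean with 1 SD (n = 4, 5, 5 and 5; the lower bar of Ciart in CD + PE is cut at 0). All MD + Veh points of Dbp, Tef, Ciart and Usp2 sit below all CD + Veh points, and the CD + PE points spread most widely, from 10.8 to 116 CPM for Dbp.

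Dbp (chr7:45354512-45359627, plus strand, GRCm39), the D-box activator with the widest known daily swing of the family, stood at 122, 149, 113 and 169 CPM in the 4 CD + Veh livers. In MD + Veh it stood at 39.4, 25.0, 32.3, 46.1 and 82.3 CPM. The highest MD + Veh liver was below the lowest CD + Veh liver. The group means were 138 ± 25.4 (SD, n = 4) in CD + Veh, 75.2 ± 41.6 (n = 5) in CD + PE, 44.99 ± 22.3 (n = 5) in MD + Veh and 36.6 ± 16.5 (n = 5) in MD + PE. In that order no neighbouring pair of groups was free of overlap, and the separation was between CD + Veh and both MD groups. On the diet with vehicle Dbp was 3.08-fold lower (log2 difference -1.62, SE 0.459, adjusted p = 0.0232). The call held in 16 of 19 fits that each left out a library and was lost without CD + Veh 4, MD + Veh 2 or MD + Veh 3, with adjusted p up to 0.0684.

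Tef (chr15:81686622-81711064, plus strand), the second PAR bZIP factor, stood at 144, 171, 142 and 199 CPM in CD + Veh. In MD + Veh it stood at 87.9, 66.3, 76.4, 104 and 115 CPM, again wholly below. It was 1.82-fold lower (log2 change -0.87, SE 0.255, adjusted p = 0.0292). This call was lost without CD + Veh 2, CD + Veh 4 or any of MD + Veh 1, 2 and 3, with adjusted p up to 0.0993. By means Tef ran from CD + Veh (164 ± 26.6 CPM) through CD + PE (108 ± 41.8) and MD + PE (92.9 ± 24.1) to MD + Veh (90.04 ± 19.97), with each neighbouring pair overlapping.

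Hlf (chr11:90227221-90281761, minus strand), the third factor of the family, was not called. It ranged from 35.4 to 60.01 CPM in CD + Veh and from 28.4 to 41.2 CPM in MD + Veh, and the groups overlapped. Its log2 fold change was -0.45 (SE 0.184, adjusted p = 0.117). It also varied least of the 9 within groups, with a pooled SD of 0.30 on the log2 scale against 0.88 for Dbp and a median of 0.22 over all genes tested. By means Hlf was highest in CD + PE (47.3 ± 11.7 CPM) and lowest in MD + Veh (33.1 ± 4.96 CPM).

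Nfil3 (chr13:53121245-53137010, minus strand), the repressor that shares D-box sites with the PAR bZIP factors, moved the opposite way. It stood at 9.89, 10.7, 26.6 and 7.005 CPM in CD + Veh. In MD + Veh it stood at 24.4, 29.7, 21.7, 31.5 and 26.9 CPM. CD + Veh 3 lay inside the MD + Veh range, and the other 3 CD + Veh livers lay below it. Nfil3 was 1.98-fold higher on the diet (log2 fold change 0.99, SE 0.319, adjusted p = 0.0451). Without CD + Veh 3 the log2 fold change was 1.54 (adjusted p = 0.00127), and the call was lost in 14 of the 19 fits that left out 1 library each, with adjusted p up to 0.143. The ratio of Dbp to Nfil3, which needs no scaling between libraries, ran from 4.27 to 24.1 in CD + Veh, from 0.841 to 3.06 in MD + Veh and from 0.607 to 2.36 in MD + PE. Its range in CD + PE was 0.260 to 6.84.

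The Rev-erb genes, which encode the repressors of Bmal1, were not called in any comparison by the fit over all 4 groups. Nr1d1 (chr11:98658752-98666188, minus strand) stood at 89.8, 99.6, 152 and 97.1 CPM in CD + Veh and at 97.7, 88.0, 76.7, 95.3 and 119 CPM in MD + Veh, and the groups overlapped. Its log2 fold change was -0.20 (SE 0.248, adjusted p = 0.637). Nr1d2 (chr14:4230545-4266624, plus strand) stood at 91.0, 99.8, 86.0 and 102 CPM in CD + Veh and at 60.1, 62.6, 61.6, 68.2 and 94.6 CPM in MD + Veh. In all, 4 of the 5 MD + Veh livers were below every CD + Veh liver, and MD + Veh 5 was inside the CD + Veh range. The log2 fold change of Nr1d2 was -0.45 (SE 0.200, adjusted p = 0.147). It was called lower when the 2 groups were fitted alone (-0.43, adjusted p = 0.0462), without CD + PE 2 (-0.45, adjusted p = 0.0456) and with a replicate block (-0.56, adjusted p = 0.0214). By means Nr1d1 ran from CD + Veh (110 ± 28.4 CPM) and CD + PE (107 ± 45.2) through MD + Veh (95.3 ± 15.5) to MD + PE (79.3 ± 18.5), all overlapping. Rora was not called in any comparison either, at 80.6 ± 9.88 CPM in CD + Veh and 67.8 ± 7.38 CPM in MD + Veh. Rorb had 0 counts in all 19 libraries.

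Ciart (chr3:95785815-95789991, minus strand), a repressor of BMAL1 and CLOCK, had the largest fold change of the 9 on the diet. It stood at 9.27, 9.81, 5.57 and 12.4 CPM in CD + Veh and at 1.01, 1.30, 0.614, 3.10 and 4.25 CPM in MD + Veh, with no overlap. The fold was 4.56 (log2 fold change -2.19, SE 0.649, adjusted p = 0.0300). These levels rest on few reads, down to 7 estimated counts in a library. The call was lost without CD + Veh 1, 2 or 4 or MD + Veh 1, 2 or 3, with adjusted p up to 0.0861. Bhlhe41 (chr6:145803969-145811430, minus strand), which encodes the E-box repressor DEC2, stood at 8.40, 5.94, 5.64 and 6.80 CPM in CD + Veh and at 3.42, 2.54, 3.00, 1.93 and 6.57 CPM in MD + Veh. MD + Veh 5 lay inside the CD + Veh range, and the log2 fold change was -0.94 (SE 0.389, adjusted p = 0.116). Bhlhe41 was called lower without MD + Veh 5 (-1.28, adjusted p = 0.0296), without CD + PE 2 (-0.94, adjusted p = 0.0432) and with a replicate block (-1.17, adjusted p = 0.0256).

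Usp2 (chr9:43978264-44006924, plus strand) encodes a deubiquitinase whose liver transcript is rhythmic. It stood at 19.8, 28.6, 18.7 and 31.9 CPM in CD + Veh and at 9.13, 4.27, 4.23, 12.5 and 11.4 CPM in MD + Veh, with no overlap. It was 3.00-fold lower on the diet (log2 fold change -1.58, SE 0.514, adjusted p = 0.0454). The call was lost in 10 of the 19 fits without 1 library, with adjusted p up to 0.123. By means Usp2 ran from CD + Veh (24.7 ± 6.49 CPM) through CD + PE (13.8 ± 11.9) and MD + PE (12.1 ± 6.96) to MD + Veh (8.29 ± 3.88), with each neighbouring pair overlapping.

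The MD + Veh livers were not alike on the 2 sides of the division of library numbers. For Dbp, Tef, Nr1d2, Ciart and Usp2 both MD + Veh 4 and MD + Veh 5 lay above MD + Veh 1, 2 and 3, as they did for 16.6% of all genes tested. The 2 sides overlapped for Hlf, Nfil3, Nr1d1 and Bhlhe41, and MD + Veh 4 was the lowest liver of the group for Bhlhe41. MD + Veh 1, 2 and 3 are the livers of this group with muscle markers above 100 CPM. They carry numbers up to 45, as all CD + Veh livers do. With the division as a covariate, 4 members were called on the diet (Dbp -2.10, Tef -1.09, Ciart -3.23 and Usp2 -2.07 as log2 fold changes), against 11.6% of genes. Nfil3 was not called (0.90, adjusted p = 0.101). Only MD + Veh lies on both sides, so the covariate rests on MD + Veh 1, 2 and 3 against MD + Veh 4 and 5. The diet values of this fit are thus in effect those of MD + Veh 1, 2 and 3 against CD + Veh. Division and muscle markers cannot be told apart in it. Without the 4 livers above 100 CPM of muscle markers, an alternative chosen after seeing the data that leaves MD + Veh with 2 livers, 0 members were called, against 5.28% of genes. The values were then -1.09 for Dbp (adjusted p = 0.369), -0.56 for Tef, -1.32 for Ciart, -1.04 for Usp2 and 1.13 for Nfil3. The part of muscle RNA in the result was not tested.

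MD + PE was set against the same CD + Veh livers, and 4 members fell. They were Dbp, Tef, Ciart and Bhlhe41, against 8.55% of genes called lower (14.6% in either direction). DESeq2 called these and Nfil3, against 13.7% of the genes it tested (its adjusted p = 0.0441, against 0.0800 in edgeR at a log2 fold change of 0.81). The same 4 genes had every MD + PE liver below every CD + Veh liver, as 11.3% of genes did. Dbp stood at 16.1, 27.4, 41.03, 38.2 and 60.3 CPM in MD + PE and was 3.78-fold lower (log2 fold change -1.92, SE 0.463, adjusted p = 0.00605), a call that held in 19 of 19 fits without 1 library. Tef stood at 77.7, 70.7, 121, 78.0 and 117 CPM (log2 fold change -0.82, adjusted p = 0.0281). Ciart stood at 0.650, 1.09, 1.74, 1.79 and 4.94 CPM (log2 fold change -2.19, adjusted p = 0.0228). Each of these livers was below the lowest CD + Veh liver, though MD + PE 5 came close to it for Ciart. Bhlhe41 stood at 2.84, 2.11, 3.22, 2.54 and 4.40 CPM (log2 fold change -1.15, adjusted p = 0.0458), and its call was lost in 11 of 19 fits without 1 library. Tef lost its call without CD + Veh 2, CD + Veh 4 or MD + PE 1, 2 or 4, and Ciart without CD + Veh 4, MD + PE 1 or MD + PE 2. Muscle markers summed to at most 3.33 CPM in MD + PE. Hepatocyte markers summed to between 43455 and 57475 CPM, wholly below CD + Veh, with 4 of 6 called lower. Duct markers summed to 141 and 106 CPM in MD + PE 2 and 4, against 34.7 to 55.8 CPM in CD + Veh, with 0 of 5 called. Intestine markers (2 of 5 tested, 1 called higher) summed to 195 CPM in MD + PE 2 and to between 112 and 129 CPM in the other MD + PE livers. They summed to 52.4 to 84.7 CPM in CD + Veh. Most of these sums was Fabp2, at 97.8 to 118 CPM in MD + PE and 104 to 121 CPM in MD + Veh. Cdx1 and Cdx2 had counts in MD + PE 2 alone. The part of hepatocyte, duct, intestine and muscle cells in the result was not tested. Diet, PE and library number all differ in this comparison. With the division as a covariate the calls were Dbp (-2.91, adjusted p = 0.0220) and Ciart (-4.08, adjusted p = 0.0224), against 6.84% of genes. Tef was then at -1.34 (adjusted p = 0.0591) and Bhlhe41 at -1.66 (adjusted p = 0.140), larger in size than without the covariate but not called. All CD + Veh livers lie on one side of the division and all MD + PE livers on the other. The covariate is thus set by MD + Veh alone, livers 1, 2 and 3 against 4 and 5. Livers 1, 2 and 3 are those with muscle markers, so these values cannot show the comparison freed of the division.

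**Figure D2:**
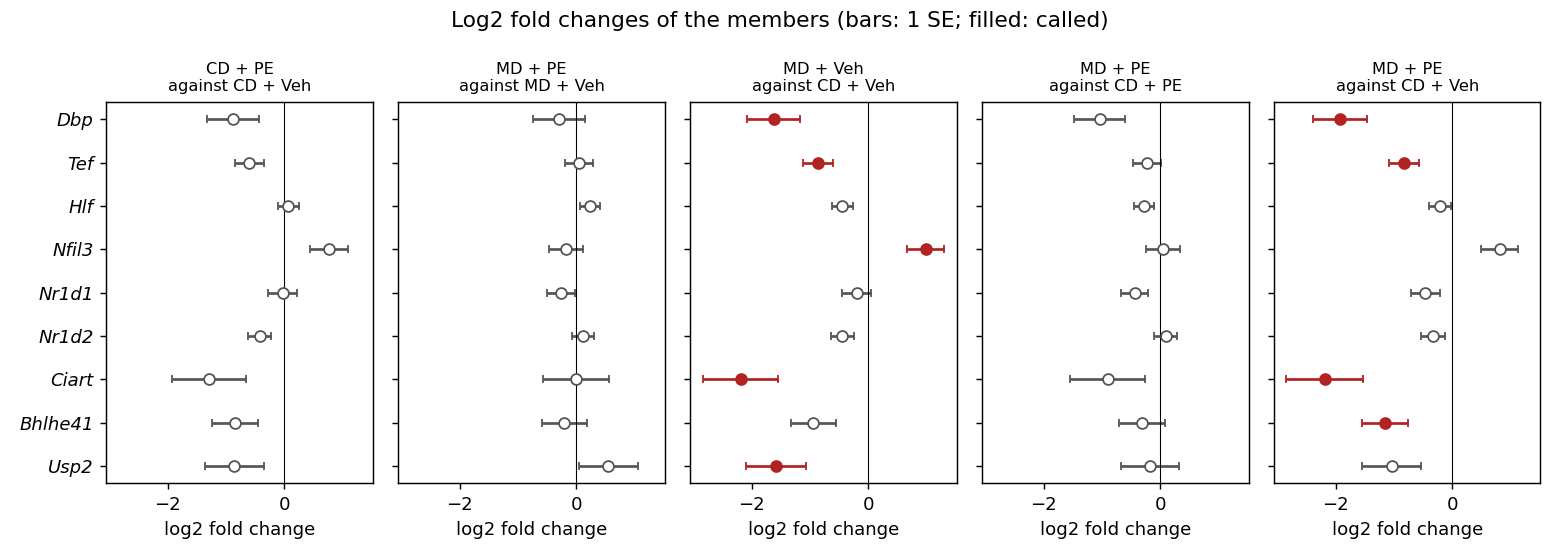
Log2 fold changes (points) with 1 SE (bars) of the 9 members in 5 comparisons, filled where called by edgeR. Filled points appear for MD + Veh against CD + Veh (5) and MD + PE against CD + Veh (4), and the other 3 panels have 0.

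PE on the control diet moved no member past the threshold, against 2.92% of all genes. Of the 9 log2 fold changes, 7 were below 0, with a median of -0.60. Unadjusted p was below 0.05 for 4 members (Tef, Nfil3, Nr1d2 and Bhlhe41), against 17.5% of genes. DESeq2 called 0, against 5.09%, and the groups overlapped for all 9 members, where they did not for 7.83% of genes. Dbp stood at 78.0, 10.8, 64.8, 106 and 116 CPM in CD + PE (log2 fold change -0.88, SE 0.454, adjusted p = 0.335). Ciart stood at 2.49, 0.614, 1.24, 4.52 and 10.3 CPM (log2 fold change -1.29, SE 0.631, adjusted p = 0.303). For both genes CD + PE 4 and 5 were the closest to CD + Veh. Nfil3 stood at 13.4, 41.5, 20.7, 22.5 and 17.0 CPM (log2 fold change 0.77, adjusted p = 0.207), and without CD + Veh 3 it was called higher (1.33, adjusted p = 0.0132).

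On the MASH diet, PE left the 9 members with log2 fold changes between -0.30 (Dbp) and 0.55 (Usp2), a median of 0.00 and 0 calls, against 1.08% of genes. Unadjusted p was below 0.05 for 0 members, against 15.7% of genes. DESeq2 called 0, against 2.01%, and the groups were free of overlap for 0 members, against 3.57% of genes. The smallest adjusted p was 0.562, for Hlf, with a log2 change of 0.24 (SE 0.176). The SE of Ciart was 0.565 and that of Usp2 was 0.501, so changes of that size in these genes were not detectable here.

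Between the PE groups the diet called 0 members, against 4.61% of genes, with 1 at an unadjusted p below 0.05 (Dbp, against 21.7% of genes). DESeq2 called 0, against 5.52%, and 0 members were free of overlap, against 6.18% of genes. The log2 fold change of Dbp was -1.04 (SE 0.441, adjusted p = 0.171). Without CD + PE 2 it was called lower (-1.32, adjusted p = 0.0146). The test of whether the PE effect differed between diets called 0 members, against 0.00735% of genes, with 1 at an unadjusted p below 0.05 (Nfil3, log2 difference -0.94, SE 0.433, adjusted p = 0.547, against 8.77% of genes). DESeq2 called 0, against 0.584%. The diet effects on vehicle and with PE were thus not shown to differ for any member.

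Single livers set much of the spread. CD + PE 2 was the lowest of all 19 livers for 6 members (Dbp, Tef, Nr1d1, Nr1d2, Bhlhe41 and Usp2) and the highest for Nfil3, at 41.5 CPM. That liver also held the Kupffer marker sum of 614 CPM, with Marco at 256 CPM, and the highest Bmal1 level, at 20.9 CPM. The part of these cells in its levels was not tested. CD + Veh 4 was the reverse case, the highest of 19 for Dbp, Tef, Hlf, Nr1d2 and Ciart and the lowest for Nfil3. CD + Veh 3 departed from its group in both Nr1d1 (152 CPM) and Nfil3 (26.6 CPM). That liver was also the lowest of CD + Veh for 6 of the 9 members (Dbp, Tef, Nr1d2, Ciart, Bhlhe41 and Usp2). MD + PE 5 was the highest MD + PE liver for 7 of the 9 members, and MD + Veh 5 the highest MD + Veh liver for 6.

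**Figure D3:**
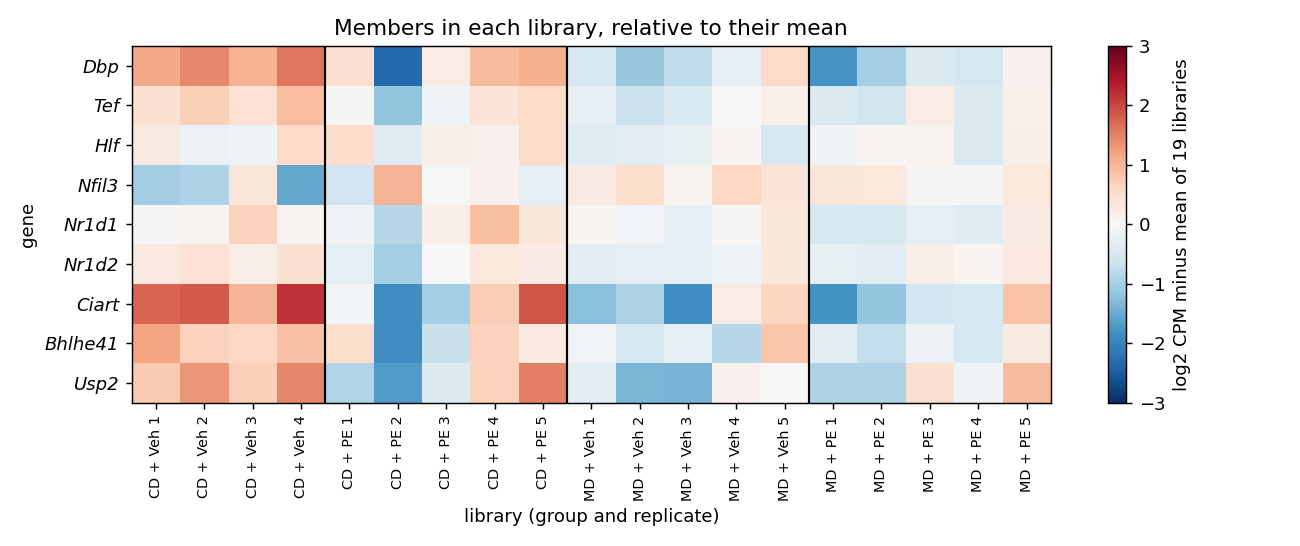
Colour gives each member's log2 CPM in a library minus its mean over the 19 libraries, with black lines between the groups. CD + PE 2 is blue for all members but Nfil3, and the CD + Veh livers are red for Dbp, Ciart, Bhlhe41 and Usp2.

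Within groups, 7 of the members rose and fell together from liver to liver. After the group means were taken out, Pearson's r between Dbp, Tef, Nr1d1, Nr1d2, Ciart, Bhlhe41 and Usp2 ran from 0.570 to 0.928 over 21 pairs (median 0.813, 19 livers). The 7 leave out Hlf and Nfil3, so this range is not that of all 9 members. Dbp reached 0.928 with Nr1d2 and 0.926 with Tef, and 0% of 9386 genes outside the 9 followed Dbp as closely. Other pairs were less particular. At the other end of the 21, 2.88% of genes followed Bhlhe41 as closely as Usp2 did (0.570). Hlf was looser, from 0.199 to 0.609 with the 7. For its pairs with Nr1d1, Nr1d2, Ciart, Bhlhe41 and Usp2, 7.37% to 31.6% of genes followed Hlf as closely. For the pairs with Dbp and Tef the share was taken from the other gene. There 8.59% of genes followed Dbp, and 5% followed Tef, as closely as Hlf did. No such share was taken without CD + PE 2. Nfil3 with the others ran from -0.603 to 0.0188. Much of this rested on 1 liver. Without CD + PE 2 (chosen after seeing the data) the 21 pairs ran from 0.357 to 0.897 (median 0.633), and Dbp with Nfil3 went from -0.531 to -0.187. Nfil3 with the other 8 then ran from -0.428 to 0.609 (median -0.157), the highest with Nr1d1, and Hlf with the 7 from -0.270 to 0.357. These values describe the same 19 livers, which share their scaling and sequencing, and no p is given.

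**Figure D4:**
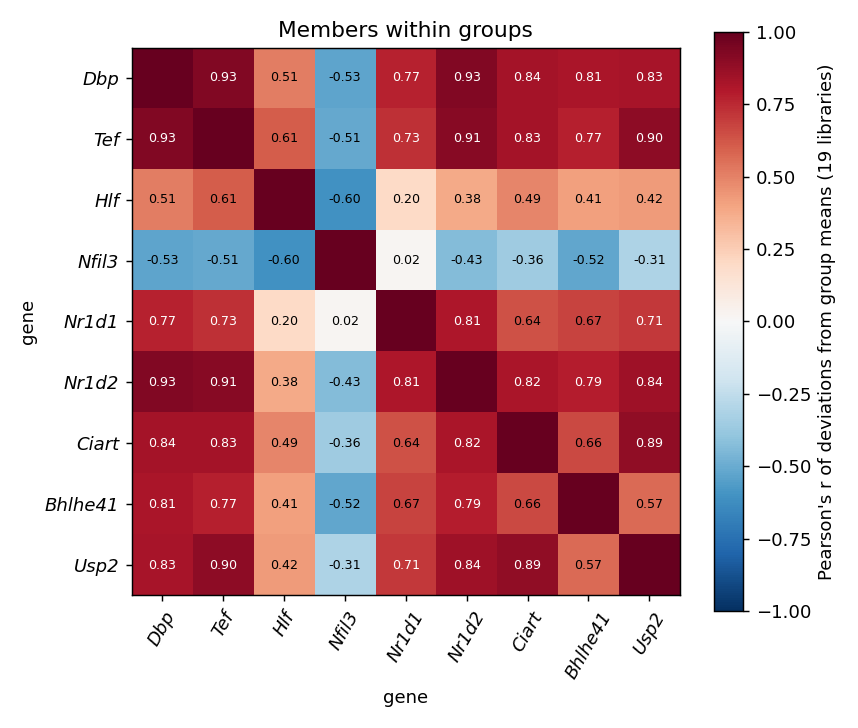
Pearson's r of the members' log2 CPM after group means were removed, over 19 livers, for each pair of genes. The 21 pairs among the 7 members without Hlf and Nfil3 lie between 0.570 and 0.928, and Nfil3 has 7 values below 0.

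The rest of the loop is given by lists chosen with earlier results of these data known. Of the activators, Bmal1, Clock and Npas2 were all higher in MD + Veh (3 of 3), with log2 fold changes of 2.15, 0.56 and 3.60 and adjusted p of 0.00120, 0.0106 and 0.00344. Bmal1 stood at 2.61, 2.65, 4.76 and 2.22 CPM in CD + Veh and at 13.9, 19.5, 15.5, 10.99 and 7.96 CPM in MD + Veh, with no overlap. In CD + PE, where no member was called, Bmal1 (1.60, adjusted p = 0.0308) and Clock (0.63, adjusted p = 0.0152) were called higher, 2 of 3. In MD + PE against CD + Veh 3 of 3 were higher, with Bmal1 at 1.88 (adjusted p = 0.00231). Of the 5 Per and Cry genes, Per3 (-1.56, adjusted p = 0.0121) and Per2 (-0.88, adjusted p = 0.0488) were lower and Cry1 (0.83, adjusted p = 0.0139) was higher in MD + Veh. In MD + PE against CD + Veh Per3 (-1.79) and Cry2 (-0.64) were lower and Cry1 (0.91) was higher. Of 8 further clock regulators, 1 was called, Bhlhe40, which encodes DEC1, the paralog of the Bhlhe41 product. It was lower in CD + PE (-0.70, adjusted p = 0.0302), in MD + Veh (-1.29) and also in MD + PE (-1.08), each against CD + Veh. For this list, 1 call among 8 genes is near the share of all genes in both MD comparisons.

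Genes downstream were less uniform. Of 7 genes that PAR bZIP factors are known to act on, 6 were tested, and against CD + Veh 0 were called in either MD group (1 of 6 in MD + Veh and 3 of 6 in MD + PE at an unadjusted p below 0.05, against 28.6% and 33.1% of genes, with 0 and 1 called by DESeq2). The median log2 fold change of the 6 was 0.29 in MD + Veh and 0.75 in MD + PE, against -0.0042 and -0.0011 over all genes. The 1 gene called by DESeq2 in MD + PE was higher. Between the PE groups 1 of the 6 was called, against 4.61% of genes. This was Cyp2b10, a xenobiotic-metabolising P450, higher on the MASH diet (log2 fold change 2.90, adjusted p = 0.0254), from a mean of 0.219 CPM in CD + PE to 1.70 CPM in MD + PE. Of 9 other rhythmic liver genes, 2 were lower in MD + Veh, against 5.63% of genes called lower. They were Rgs16, a brake on G protein signalling (-3.54, adjusted p = 0.00131), and Gys2, the liver glycogen synthase (-0.72, adjusted p = 0.0172). In MD + PE against CD + Veh 1 of the 9 was lower, Rgs16 (-2.82, adjusted p = 0.00407), against 8.55% of genes. Of 7 glucocorticoid-induced genes, 0 were called in any comparison, where 0.00735% to 14.6% of genes were called. At an unadjusted p below 0.05 there were 1 to 2 of 7 in the 5 group comparisons, against 15.7% to 33.1% of genes. DESeq2 called 0, against 0.584% to 13.7% of the genes it tested.

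The genes most like each member were sought among 9386 tested genes whose mean reached 5 CPM, by Pearson's r of log2 CPM over the 19 libraries. The 9 members were left out of this search, and some pairs of members were closer, such as Dbp with Tef (0.943). For Dbp they were Per3 (0.941), Upp2 (0.921) and Plekhg3 (0.912), and for Tef they were Per3, Plekhg3 and Upp2 (0.956, 0.936 and 0.934). Among the lowest r with Dbp were those of Bmal1 (-0.918) and Itsn1 (-0.905). Dbp and Bmal1 held an r of -0.922 within groups, and -0.848 within groups without CD + PE 2. Ciart was closest to Osbpl1a (0.933), Rgs16 and Wee1, Usp2 to Klf13 (0.919), Wee1 and Lpin1, and Nr1d2 to Ddo (0.886), Wee1 and Tcp1. Bhlhe41 was closest to Per3 (0.868), Slc37a4 and Cops7a. Nfil3 was closest to Mtmr4 (0.905), Pnrc1 and Sumo3, and Hlf to Supv3l1 (0.831), Hnrnpll and Sfxn2. Nr1d1 was closest to Oaf (0.833), Myg1 and Zfp949, and its lowest r were those of Skil (-0.803), Rgl1 and Samd9l. Wee1 recurred for 3 members and Per3 for 3.

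**Figure D5:**
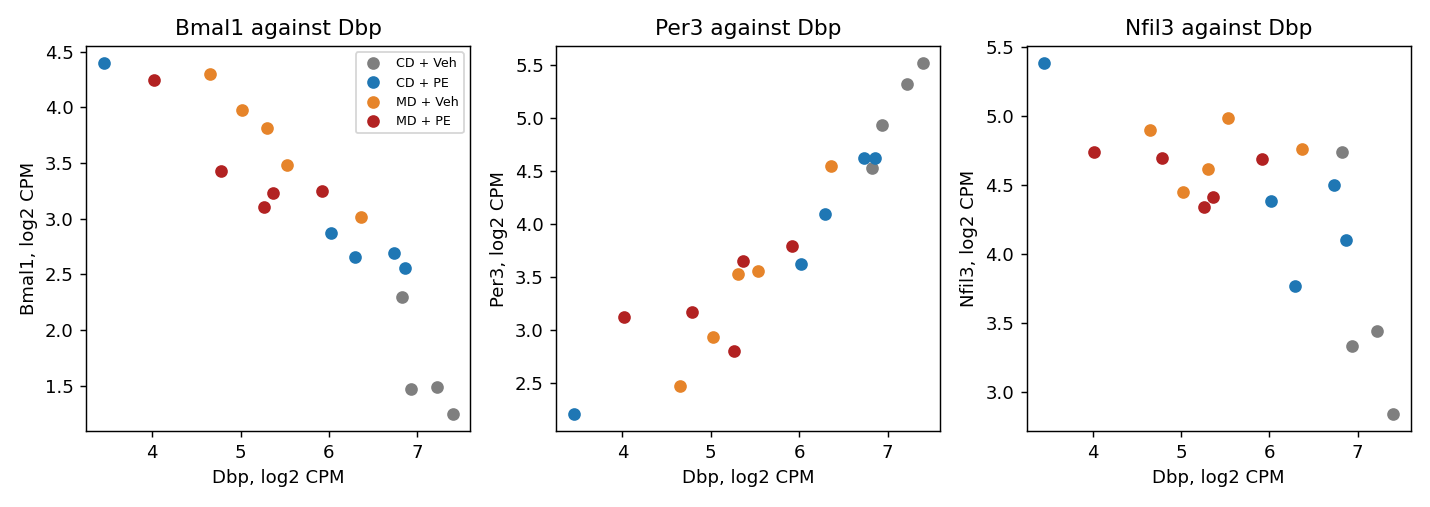
Log2 CPM of Bmal1, Per3 and Nfil3 (vertical axes) against Dbp (horizontal axes), with 1 point per library coloured by group. Over the 19 libraries r is -0.918 for Bmal1, 0.941 for Per3 and -0.726 for Nfil3.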

How the data were processed

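The deposited table holds estimated counts per gene, rounded to whole numbers, which the authors made with fastp 0.23.4 and Salmon 1.10.3 against GRCm39 (submitters' processing notes, which also name DESeq2). All 19 libraries and 55836 genes were read, and 0 columns belonged to other samples. In R 4.3.3, edgeR 4.0.16 filtered low counts (filterByExpr), applied TMM scaling and fitted quasi-likelihood models over all 4 groups (15 residual degrees of freedom). A gene was called at an adjusted p (Benjamini-Hochberg, two-sided, over 13597 genes) below 0.05 with a log2 fold change of 0.38 or more in size. Log2 CPM used a prior count of 2. DESeq2 1.42.0 was an alternative, with other scalings, filters, dispersions and samples. The fit was tested on simulated data.

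Named genes were the 9 members, list genes called in a comparison, and for each member the 3 other genes of highest r (also lowest for Dbp and Nr1d1). Members and lists were chosen with earlier results of these data known. Comparisons with CD + Veh share its livers. Same-group libraries differed by 11.2 to 85.5 times counting error (36 pairs, mean squared difference), so none was a copy. P-values cover the spread between these livers only. Salmon splits reads among similar transcripts, and by the study's methods the libraries were stranded and Salmon detected the library type itself. Some genes that the naming rule would give are not reported here.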

Additional observations from a re-analysis of the deposited data

Results flagged for a closer look

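In 4 of 36 sets of a member and a group, 1 liver stood apart from the rest of its group by Dixon's ratio of gap to range, where chance gives about 1 in 20. Nr1d1 was at 152 CPM in CD + Veh 3, with the nearest liver at 99.6 CPM. It was at 112 CPM in MD + PE 5, with the nearest at 77.02 CPM. Nr1d2 was at 94.6 CPM in MD + Veh 5, with the nearest at 68.2 CPM. Ciart was at 4.94 CPM in MD + PE 5, with the nearest at 1.79 CPM.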

How the results depend on the processing

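The numbers of members called were 0, 0, 5, 0, 4 and 0 for PE on the control diet, PE on the MASH diet, MD + Veh against CD + Veh, the diet with PE, MD + PE against CD + Veh, and the interaction. Replicate numbers did not pair the livers (27 same-number pairs, median r 0.0293, 6 above 0.1, and 4 of 19 livers closest to one of their own number), and a replicate block gave 3 calls in CD + PE against CD + Veh (Tef, Ciart and Usp2 lower), 7 in MD + Veh (Nr1d2 and Bhlhe41 added) and 5 in MD + PE against CD + Veh, where it called 3.08%, 10.6% and 14.5% of all genes. In MD + Veh the number was 3 without a filter (4.70% of genes), 3 with robust dispersion (9.77%) and 0 without the 4 livers of high muscle markers. In MD + PE against CD + Veh it was 2 with the division of library numbers as a covariate. Leaving out 1 library gave 0 to 1, 0 to 0, 0 to 7, 0 to 1, 1 to 5 and 0 in the 6 comparisons. It was 0 in MD + Veh without CD + Veh 4, MD + Veh 2 or MD + Veh 3, 1 without CD + Veh 2 or MD + Veh 1, 2 without CD + Veh 1, and 3 without CD + PE 4 or MD + PE 3. In MD + PE against CD + Veh it was 1 without CD + Veh 4, MD + PE 1 or MD + PE 2 and 2 without CD + Veh 2 or MD + PE 4. The share of all genes called is not given for the fits without 1 library. Fewer member calls thus cannot be told from fewer calls over all genes. The cause was not tested.

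The genes tested in the clock and output lists were 3 activators, 5 Per and Cry genes, 2 Ror genes, 8 regulators, 6 PAR bZIP targets and 9 rhythmic genes. Calls over these lists together were 3, 0, 9, 1, 8 and 0, against 2.92%, 1.08%, 10.4%, 4.61%, 14.6% and 0.00735% of all genes. Without the 4 livers of high muscle markers they were 1 in MD + Veh (against 5.28% of genes) and 0 between the PE groups. DESeq2 gave 1 for the interaction, against 0.584% of genes. Leaving out 1 library gave 0 to 4 in CD + PE (0 without CD + Veh 1 or 4) and 0 to 3 between the PE groups. Of the 27 nearest genes, 12 were kept with Spearman's rho and 13 with deviations from group means.

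Of 54 values (9 members, 6 comparisons), directions turned only for uncalled values of at most 0.30 on the log2 scale. Ciart in MD + PE against MD + Veh, at 0.00, had no direction to turn and is not counted. It ran from -0.86 to 0.02 over the alternatives, and from -0.61 to 0.45 on leaving out 1 library. With the division covariate Hlf was -0.05 in CD + PE, and Tef -0.24 and Nr1d2 -0.12 in MD + PE against MD + Veh. Without the muscle-marked livers Hlf was -0.01 and Nr1d1 0.05 in CD + PE, Tef -0.24 and Nr1d2 -0.11 in MD + PE against MD + Veh, and Nfil3 -0.09 between the PE groups. Leaving out 1 library gave -0.03 to 0.25 for Hlf and -0.26 to 0.17 for Nr1d1 in CD + PE, -0.07 to 0.15 for Tef, -0.55 to 0.04 for Dbp and -0.38 to 0.14 for Bhlhe41 in MD + PE against MD + Veh, and -0.10 to 0.37 for Nfil3, -0.07 to 0.21 for Nr1d2 and -0.51 to 0.42 for Usp2 between the PE groups. Low counts limit Ciart and Bhlhe41.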
